A study of Mus musculus with 9 samples.

Results

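The D-type cyclins, the kinases they activate, the inhibitors of those kinases and the retinoblastoma gene Rb1 were followed in CD4-enriched mouse T cells with and without CD69. The 10 genes were listed by name: Ccnd1, Ccnd2, Ccnd3, Cdk4, Cdk6, Cdkn1a, Cdkn1b, Cdkn2c, Cdkn2d and Rb1. A gene was measured where a probe set carried its symbol alone, and the probe set with the highest mean over all arrays stood for it. This gave values for 9 of the 10 genes, among 19938 genes in all. The only probe set annotated with Cdkn1a, the gene of the inhibitor p21, also carries a second symbol, so no value is given for Cdkn1a.

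The cells were CD4-enriched T cells from the spleens of C57BL/6J mice, cultured for 72 h with beads that carry antibodies against CD3 and CD28 and so stimulate the T cell receptor complex and its costimulatory receptor. CD69 is a membrane protein that lymphocytes display soon after activation. Of the 9 arrays, 3 held wild-type cells, 3 held cells of CD69-/- B6 mice, and 3 held wild-type cells given anti-CD69 antibody after 24 h and then, at 48 h, a secondary antibody that cross-links it, each diluted 1 in 200. The last group is called CD69-activated, and all groups shared the bead stimulation. The study set out to find CD69-dependent RNAs in stimulated T cells. The labels speak of biological replicates but not of separate mice, so the p-values describe only the spread among these samples, which may be technical. No culture with an isotype control, or with the cross-linker by itself, is described, so ligation of CD69 and other effects of the added antibodies cannot be told apart.

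A resting T cell enters the cell cycle when growth signals raise D-type cyclins. These bind CDK4 and CDK6, and the active kinases phosphorylate the retinoblastoma protein, which then releases E2F transcription factors to switch on genes of DNA synthesis. INK4 proteins such as p18 (Cdkn2c) and p19 (Cdkn2d) block CDK4 and CDK6 directly, and the CIP/KIP proteins p21 (Cdkn1a) and p27 (Cdkn1b) block CDK2 complexes. In T cells, cyclin D2 and cyclin D3 are the main D-type cyclins, CDK6 is abundant, and p27 and p18 restrain proliferation. Much of the control of p27 and of the retinoblastoma protein acts on the proteins, which these RNA measurements do not show.

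Values are log2 expression values, so a difference of 1 is a 2-fold change. Array medians lay between 7.40 and 7.56. Correlations across probe sets were 0.9959 to 0.9977 within groups and 0.9842 to 0.9955 between them. Cd69 was 5.99-fold lower in CD69-/- than in wild-type cells (log2 difference -2.58, SE 0.078, limma adjusted p = 1.22e-08, n = 3 per group). Its values in the CD69-/- arrays, 9.49 to 9.65, still lay above the array medians. In CD69-activated cells Cd69 was 1.30-fold lower than in wild type (-0.38, limma adjusted p = 0.00512). The CD69-/- arrays carried a male expression pattern and the other 6 arrays a female one: the mean of Xist, the X-inactivation transcript, was 12.59 in wild type, 6.01 in CD69-/- and 12.95 in CD69-activated cells, and that of Y-linked Eif2s3y was 4.33, 9.78 and 4.35. Sex and genotype therefore cannot be told apart in either comparison that involves CD69-/- cells, and none of the 9 genes lies on a sex chromosome. Cell type markers moved with genotype as well. All 11 measured CD4 T cell markers were higher in CD69-/- than in wild type, with a mean level of 12.19 to 12.23 per array against 11.71 to 11.78. All 13 B cell markers were lower (11.79 to 11.87 against 12.29 to 12.34), as were 12 of 14 myeloid markers (8.24 to 8.36 against 8.87 to 8.93). In CD69-activated cells the mean levels of these lists were 11.69 to 11.71, 12.23 to 12.29 and 8.939 to 8.995, and 3 CD4 T cell markers, 2 B cell markers and 3 myeloid markers were lower than in wild type, with 0, 2 and 4 higher (after median centring 5, 7 and 6 lower and 0, 1 and 2 higher). Both CD8 T cell markers were higher in CD69-/- and lower in CD69-activated cells (11.81 to 11.84 in wild type, 12.33 to 12.39 in CD69-/- and 11.32 to 11.52 in CD69-activated cells). Of 7 NK cell markers, 4 were lower and 1 higher in CD69-/- cells, and 5 were lower in CD69-activated cells (7.18 to 7.23, 6.94 to 6.98 and 6.68 to 6.78). Of 10 neutrophil markers 1 was lower in CD69-/- and 1 higher in CD69-activated cells, and of 6 erythroid markers 4 were lower in CD69-/- while 1 was higher and 2 were lower in CD69-activated cells. The arrays have no detection calls, so no marker can be called absent. In wild-type arrays the mean levels of the B cell and CD8 T cell lists lay above that of the CD4 T cell list. The values below therefore cannot be assigned to CD4 T cells alone. The part of cell composition in the differences below was not tested, and in such bulk RNA fewer cells of a type and less RNA per cell cannot be told apart.

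In CD69-activated cells the set shifted towards lower cyclin and kinase RNA. Ccnd2, Ccnd3, Cdk4, Cdk6 and Cdkn2c fell, Rb1 rose, and Ccnd1, Cdkn1b and Cdkn2d did not pass the test (adjusted p under 0.05). Thus 5 of 9 genes were called lower and 1 higher, where 13.7% of all 19938 genes were called lower and 10.1% higher. The median difference of the 9 genes was -0.23, beside 0.017 over all genes. In CD69-/- cells Ccnd2 and Ccnd3 rose and, by the brightest probe set of each gene, none of the set was called lower. Thus 2 of 9 were called higher where 8.36% of all genes were, and 0 of 9 lower where 6.78% were. The median difference of the 9 genes was 0.082, beside -0.0091 over all genes. A second probe set of Cdkn1b, described below, was called lower in CD69-/- cells (-1.07). Both comparisons use the same 3 wild-type arrays, so they are not independent, and an error in the wild-type mean would move both differences the same way. Standard errors of the 9 differences from wild type lay between 0.033 and 0.053. How many of all genes have groups that do not overlap was not counted, so such separation is only described below. Cdkn1b, by its brightest probe set, had separate groups in every comparison and was called in none.

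**Figure D1:**
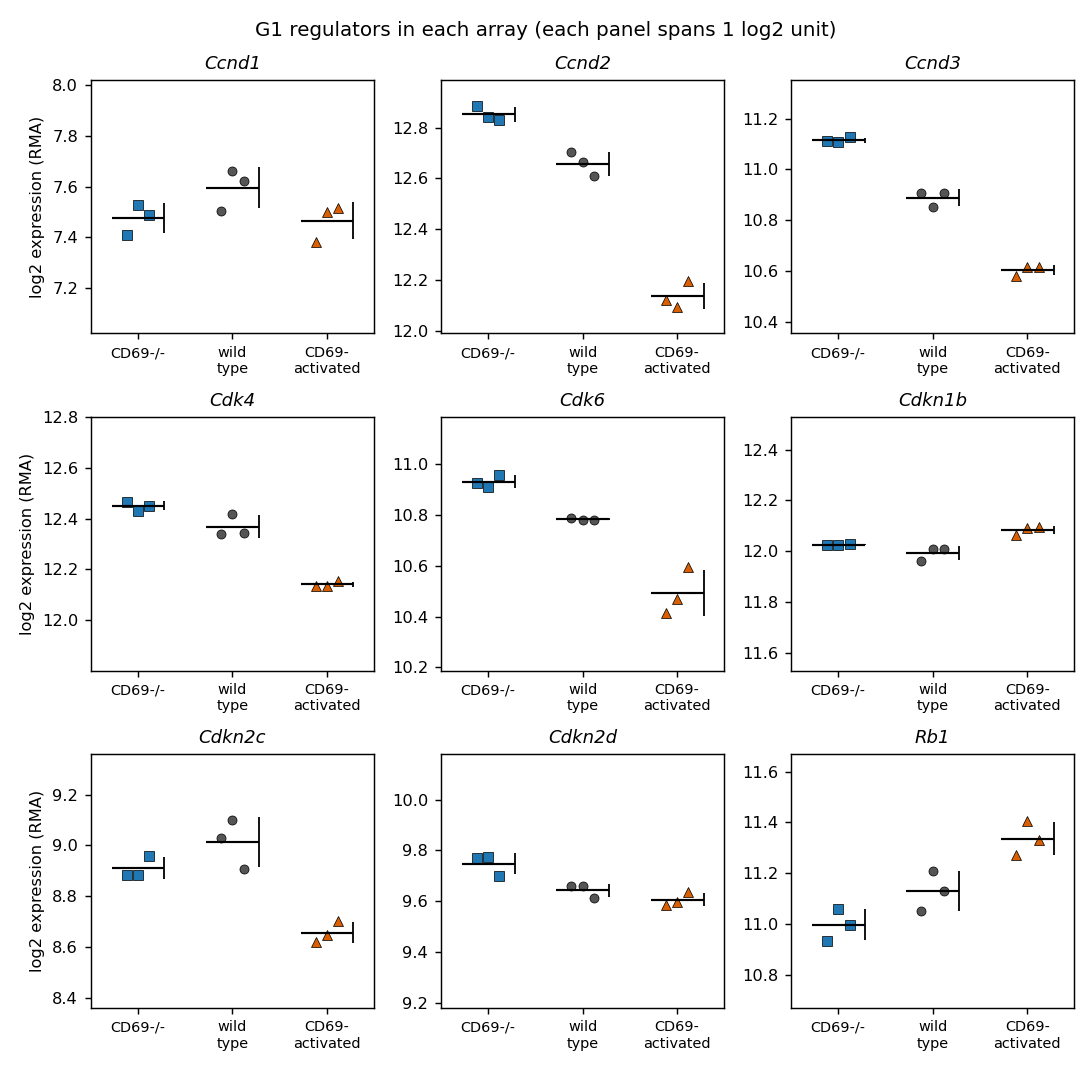
Log2 expression (RMA) of the 9 measured genes in each of the 9 arrays, with CD69-/-, wild-type and CD69-activated arrays as squares, circles and triangles; horizontal lines are group means, vertical lines extend 1 SD either side (n = 3), and every panel spans 1 log2 unit around its own centre. The group means of Ccnd2, Ccnd3, Cdk4 and Cdk6 step down from CD69-/- to wild type to CD69-activated. Of these, the CD69-/- to wild-type step passed the test for Ccnd2 and Ccnd3 alone. Rb1 is highest in CD69-activated cells, and Ccnd1 groups overlap.

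Cyclin D2 showed the widest range of group means, 0.72 log2 units. Ccnd2 stood at 12.70, 12.66 and 12.61 in the wild-type arrays, while CD69-/- arrays read 12.88, 12.84 and 12.83 and CD69-activated arrays 12.12, 12.09 and 12.19. The CD69-activated arrays lay lowest. The fall in CD69-activated cells was 1.44-fold (log2 difference -0.52, SE 0.041, 95% interval -0.61 to -0.43, adjusted p = 8.77e-06), larger in size than that of 97.9% of genes. The rise in CD69-/- cells was 1.14-fold (0.19, SE 0.041, 95% interval 0.10 to 0.29, adjusted p = 0.00757).

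Cyclin D3 followed the same order. Ccnd3 stood at 10.91, 10.85 and 10.91 in the wild-type arrays. The CD69-/- arrays read 11.11, 11.11 and 11.13, and the CD69-activated arrays 10.58, 10.62 and 10.61. The group SDs of 0.033, 0.010 and 0.020 were small beside the steps between groups. Ccnd3 fell 1.22-fold in CD69-activated cells (log2 difference -0.28, SE 0.034, adjusted p = 0.000147) and rose 1.17-fold in CD69-/- cells (0.23, SE 0.034, adjusted p = 0.000822). By the brightest probe sets, Ccnd3 was the gene of the set with the smallest adjusted p in the comparison of CD69-/- with wild type.

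Cyclin D1, the D-type cyclin of many epithelial and mesenchymal cells, did not follow this order. Ccnd1 stood at 7.504, 7.661 and 7.624 in the wild-type arrays, while CD69-/- arrays read 7.41, 7.53 and 7.49 and CD69-activated arrays 7.38, 7.50 and 7.52. The groups overlapped, and all 9 values lay close to the array medians. Its difference from wild type was -0.12 in CD69-/- (SE 0.053, adjusted p = 0.178) and -0.13 in CD69-activated cells (SE 0.053, adjusted p = 0.107). The latter passed the test once each array was centred on its median (adjusted p = 0.00848), after cyclic loess (0.0388) and without wild-type replicate 1 (0.0478).

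The kinase partners of the D cyclins also fell with CD69 activation. Cdk4 stood at 12.34, 12.42 and 12.34 in the wild-type arrays. The CD69-/- arrays read 12.47, 12.43 and 12.45, and the CD69-activated arrays 12.14, 12.14 and 12.15. Cdk6 stood at 10.79, 10.78 and 10.78 in the wild-type arrays, while CD69-/- arrays read 10.93, 10.91 and 10.96 and CD69-activated arrays 10.42, 10.47 and 10.59. The CD69-activated arrays were lowest for both, with Cdk6 more widely spread there (SD 0.092) than in wild type (SD 0.0041). Cdk4 fell 1.17-fold with CD69 activation (log2 difference -0.23, SE 0.035, adjusted p = 0.000899). Cdk6 fell 1.22-fold (-0.29, SE 0.045, adjusted p = 0.000887).

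In CD69-/- cells neither kinase passed the test, although all 3 arrays lay above all wild-type arrays. The difference was 0.082 for Cdk4 (SE 0.035, 95% interval 0.0039 to 0.16, adjusted p = 0.164) and 0.15 for Cdk6 (SE 0.045, 95% interval 0.048 to 0.25, adjusted p = 0.0514). The Cdk6 call depends on the processing, as Cdk6 passed in 7 of 21 alternatives (adjusted p 0.0111 to 0.0385). Among these were median centring (0.0207), leaving out CD69-activated replicate 1 (0.0280) and leaving out CD69-activated replicate 3 (0.0146). Cdk4 passed in 1 alternative, with an intensity trend and robust prior (0.0465).

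The promoter letters of both kinase genes are shown, and theirs were the only windows of the set that held the letters CACGTG. The letters CACGTG (the E-box) are among those that MYC protein is known to bind. Binding was not measured, and any part of MYC in the kinase differences was not tested. Each run is the 250 bases before the start given by RefSeq on build GRCm38.p6, 5′ to 3′ on the plus strand, at chr10:127063285-127063534 for Cdk4 and chr5:3343643-3343892 for Cdk6. Capitals mark CACGTG, which reads the same on both strands.
Cdk4: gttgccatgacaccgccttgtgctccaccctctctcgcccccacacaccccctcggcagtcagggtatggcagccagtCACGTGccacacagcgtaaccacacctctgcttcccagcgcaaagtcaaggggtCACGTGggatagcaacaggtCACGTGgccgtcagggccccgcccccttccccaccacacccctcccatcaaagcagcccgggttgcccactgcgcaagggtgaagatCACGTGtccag
Cdk6: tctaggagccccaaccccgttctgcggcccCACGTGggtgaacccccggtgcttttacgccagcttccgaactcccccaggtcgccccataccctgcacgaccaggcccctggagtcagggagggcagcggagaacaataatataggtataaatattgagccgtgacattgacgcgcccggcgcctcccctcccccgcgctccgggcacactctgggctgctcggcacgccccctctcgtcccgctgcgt
The Cdk4 window held 4 E-boxes, which began 172, 118, 98 and 11 bases before the start, and the Cdk6 window held 1, at 220 bases. Of 32851 windows of the same length in the RefSeq table, 6.02% held at least 1 E-box and 7 windows (0.0213%) held 4 or more. The Cdk4 window is among those 7, and the cut of 4 equals its own count. The windows have a GC content of 64.4% for Cdk4 and 66% for Cdk6, beside a median of 52.4% over the table, and CACGTG contains CpG, so base composition bears on these counts.

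The table held 10 windows for 7 of the 10 genes (Ccnd3, Cdk4, Cdk6, Cdkn1a, Cdkn1b, Cdkn2c and Cdkn2d), and Ccnd1, Ccnd2 and Rb1 had no entry. No E-box occurred in the windows other than those of Cdk4 and Cdk6. Windows without it include those of Ccnd3 and Cdkn2c, which also fell in CD69-activated cells. The FOXO letters GTAAACA, searched on both strands, occurred once, on the reverse strand 243 bases before 1 of 2 Ccnd3 starts, and in 3.17% of all windows. The E2F letters (TTTCCCGC, TTTGGCGC, TTTCGCGC or TTTGCCGC, in 1.86% of all windows) and the STAT letters TTCNNNGAA (7.02%) occurred in none of the 10 windows. A match is a description of the letters and not a bound site.

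Among the inhibitors, p18 RNA moved with CD69 activation in the same direction as the cyclins and kinases. Cdkn2c stood at 9.03, 9.10 and 8.91 in the wild-type arrays. The CD69-/- arrays read 8.88, 8.88 and 8.96, and the CD69-activated arrays 8.62, 8.65 and 8.70. For Cdkn2c the CD69-activated arrays lay below all others, while the wild-type and CD69-/- arrays overlapped. Cdkn2c fell 1.28-fold with CD69 activation (log2 difference -0.36, SE 0.051, adjusted p = 0.000492). The CD69-/- difference was -0.10 (SE 0.051, 95% interval -0.22 to 0.00999, adjusted p = 0.230).

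The other INK4 gene of T cells, Cdkn2d (p19), stood at 9.66, 9.66 and 9.61 in the wild-type arrays, while CD69-/- arrays read 9.77, 9.77 and 9.70 and CD69-activated arrays 9.59, 9.60 and 9.64. The wild-type and CD69-activated arrays overlapped, and the CD69-/- arrays lay above both. Neither difference from wild type passed the test, with 0.10 in CD69-/- (SE 0.037, adjusted p = 0.0838, which became 0.0438 after median centring) and -0.037 in CD69-activated cells (SE 0.037, 95% interval -0.12 to 0.044, adjusted p = 0.514).

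For p27, an inhibitor kept high in resting T cells, the result depended on the probe set. The brighter Cdkn1b probe set stood at 11.96, 12.01 and 12.01 in the wild-type arrays. The CD69-/- arrays read 12.03, 12.02 and 12.03, and the CD69-activated arrays 12.07, 12.09 and 12.10. The groups were separate but close. The difference was 0.033 in CD69-/- (SE 0.033, 95% interval -0.039 to 0.10, adjusted p = 0.581) and 0.091 in CD69-activated cells (SE 0.033, 95% interval 0.019 to 0.16, adjusted p = 0.0679, which became 0.0103 after cyclic loess and 0.0125 with an intensity trend and robust prior).

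The second Cdkn1b probe set stood at 9.34, 9.56 and 9.36 in the wild-type arrays, while CD69-/- arrays read 8.41, 8.31 and 8.35 and CD69-activated arrays 9.52, 9.76 and 9.55. In this probe set the CD69-/- arrays stood far below both other groups, which overlapped. Its difference in CD69-/- was -1.07 (SE 0.079, limma adjusted p = 0.000171 over all 35556 probe sets), and 33 of the 35556 probe sets had a difference as low or lower. Between CD69-activated and wild-type cells it was 0.19 (adjusted p = 0.141). The gap between the differences of the 2 Cdkn1b probe sets in CD69-/- cells was 1.10, where the median gap over 999 genes with several probe sets was 0.049 and the 95th percentile 0.27. Of these genes only the predicted gene Gm5486 (gap 1.21) had a gap as wide as that of Cdkn1b. The sources used here do not say which part of the transcript each probe set covers, so no single direction is given for Cdkn1b in CD69-/- cells.

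**Figure D2:**
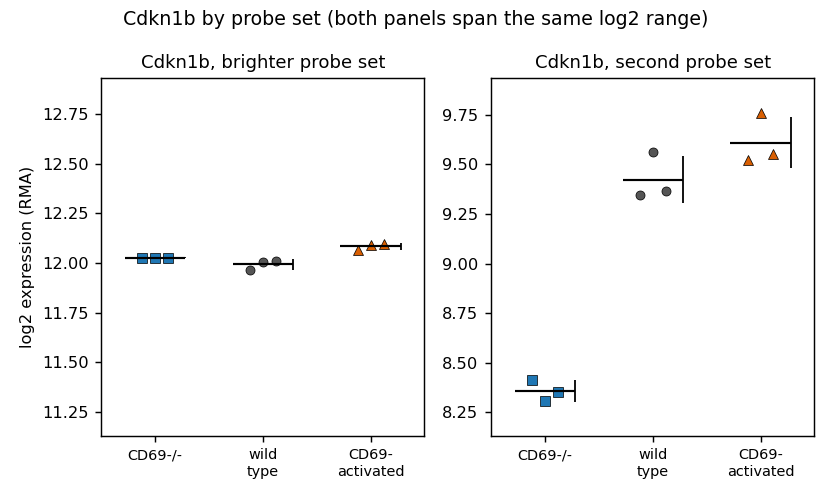
Log2 expression (RMA) of Cdkn1b in each array by its brighter (left) and second (right) probe set, with CD69-/-, wild-type and CD69-activated arrays as squares, circles and triangles, group means as horizontal lines, 1 SD either side as vertical lines (n = 3) and the same log2 range spanned by both panels. The brighter probe set is nearly level across groups, whereas the second lies at 8.31 to 8.41 in CD69-/- arrays and at 9.34 or above in all others.

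Cdkn1b and Ccnd2 share chromosome 6 with Cd69 itself, the gene altered in the CD69-/- mice, with 67 and 27 tested genes between each of them and Cd69. In the comparison of CD69-/- with wild type, 30.9% of the 97 genes from Ccnd2 to Cdkn1b, both included, were called (13 higher and 17 lower), beside 17.8% of the 1099 genes of chromosome 6 and 15.1% of all genes. This interval holds Cd69 itself and was chosen after its values were seen. Its part in the Ccnd2 and Cdkn1b values was not tested, nor was the part of the cell marker differences in its calls. An array cannot tell a DNA sequence difference under its probes from a difference in RNA level, and whether the sequence around Cd69 differs between the CD69-/- and wild-type mice was not tested. The comparison of CD69-activated with wild-type cells has no such difference in genotype.

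Rb1, the target of the cyclin D kinases and the brake on E2F factors, moved opposite to the cyclins and kinases in CD69-activated cells. It stood at 11.05, 11.21 and 11.13 in the wild-type arrays. The CD69-/- arrays read 10.934, 11.057 and 10.996, and the CD69-activated arrays 11.27, 11.40 and 11.33. The CD69-activated arrays lay above all others, and the wild-type and CD69-/- arrays overlapped. Rb1 rose 1.15-fold with CD69 activation (log2 difference 0.21, SE 0.052, 95% interval 0.091 to 0.32, adjusted p = 0.0148). This call was lost after median centring (adjusted p = 0.0842), without wild-type replicate 1 (0.0627) and without CD69-activated replicate 2 (0.0530). In CD69-/- cells the difference was -0.13 (SE 0.052, 95% interval -0.25 to -0.018, adjusted p = 0.125).

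Set directly against each other, CD69-activated and CD69-/- cells differed in 7 of the 9 genes, in a comparison that also carries the differences in sex pattern and in cell markers. Of the 9, 6 were lower and 1 higher in CD69-activated cells, where 21% of all genes were lower and 21.6% higher, and the median difference was -0.25 beside 0.035 over all genes. Ccnd2 was 1.64-fold lower (log2 difference -0.72, adjusted p = 2.71e-07) and Ccnd3 1.43-fold lower (-0.51, adjusted p = 8.02e-07). Cdk6 was 1.36-fold lower (-0.44, adjusted p = 2.04e-05) and Cdk4 1.24-fold lower (-0.31, adjusted p = 4.44e-05). Cdkn2c was 1.19-fold lower (-0.25, adjusted p = 0.00219), Cdkn2d 1.10-fold lower (-0.14, adjusted p = 0.00935, lost after cyclic loess at 0.0641) and Rb1 1.27-fold higher (0.34, adjusted p = 0.000370). Ccnd1 differed by -0.0099 (95% interval -0.13 to 0.11, adjusted p = 0.895). The brighter Cdkn1b probe set differed by 0.058 (adjusted p = 0.174), and the second by 1.25 (adjusted p = 2.25e-05 over all probe sets).

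**Figure D3:**
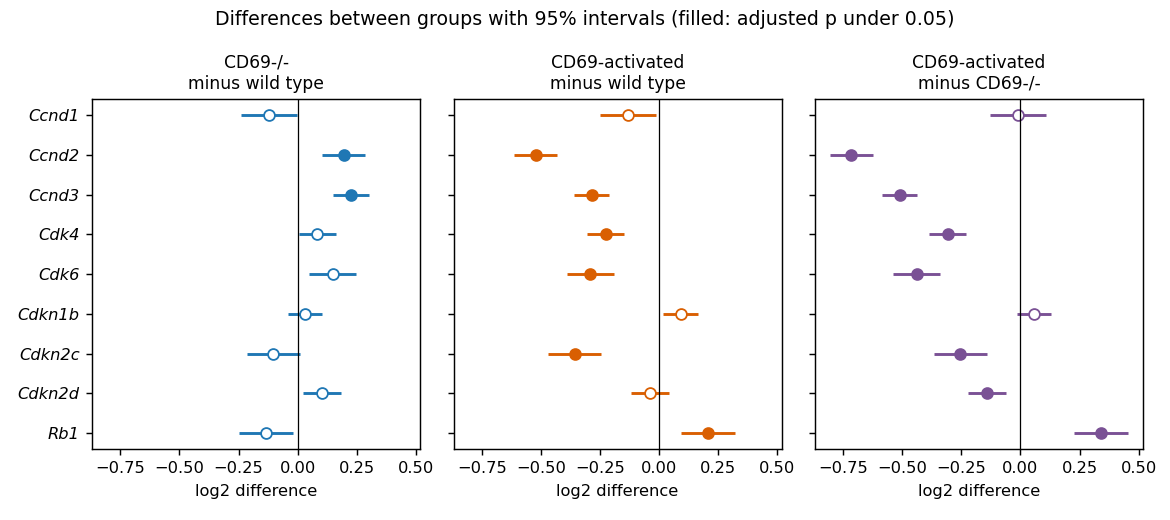
Log2 differences of the 9 measured genes of CD69-/- from wild-type cells (left), of CD69-activated from wild-type cells (centre) and of CD69-activated from CD69-/- cells (right), as points with 95% intervals, filled where the adjusted p was under 0.05. Ccnd2 and Ccnd3 are the 2 filled points on the left, 5 points lie filled below 0 and Rb1 above 0 in the centre, and after median centring Cdk6 and Cdkn2d join the calls on the left while Rb1 loses its call in the centre.

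Median centring used the median of all 35556 probe sets of each array, 12146 of them without a symbol. It moved the median of all genes by 0.046 for CD69-/- against wild-type cells. For CD69-activated cells the shift was -0.081 against wild-type cells and -0.13 against CD69-/- cells. The gene medians thus moved away from 0, to 0.037, -0.065 and -0.092, whereas cyclic loess gave 0.0035, -0.0094 and -0.0097. Calls that change under centring carry this offset between groups. Centring changed the split of all genes called higher and lower from 1667 and 1351 to 2462 and 886, from 2015 and 2727 to 764 and 4741, and from 4314 and 4187 to 1354 and 7990. For the 9 genes it gave 4 higher and 0 lower in CD69-/- cells, 0 higher and 6 lower in CD69-activated cells, and 1 higher and 7 lower for CD69-activated against CD69-/- cells. The calls for Ccnd2 and Ccnd3 held in all 3 comparisons, and those for Cdk4, Cdk6 and Cdkn2c in both that involve CD69-activated cells, under median centring and cyclic loess.

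Other genes of the pathway, taken from 5 lists, are described by counts and medians. Over all genes, 8.36% were higher and 6.78% lower in CD69-/- cells, and 10.1% and 13.7% in CD69-activated cells. Between CD69-activated and CD69-/- cells these shares were 21.6% and 21%. Medians over all genes were -0.0091, 0.017 and 0.035 in these comparisons, and 0.037, -0.065 and -0.092 after median centring. E2F target genes, which encode enzymes and loading factors of DNA replication, were lower in CD69-activated cells for 20 of 23 measured genes and higher for 0, with a median difference of -0.43. Rrm2, a subunit of ribonucleotide reductase, fell by 1.35 on the log2 scale. Uhrf1, a reader of hemimethylated DNA, fell by 1.11, the checkpoint kinase gene Chek1 fell by 1.05 and Cdca7 fell by 0.84. Of the 23, 3 were higher and 0 lower in CD69-/- cells, with a median of 0.11, and 7 higher and 0 lower after median centring (median 0.15). The 3 called higher before centring were the primase subunit Prim1 (0.30, adjusted p = 0.0364), the origin recognition gene Orc1 (0.19, adjusted p = 0.0402) and the replicative helicase subunit Mcm5 (0.18, adjusted p = 0.00939). After cyclic loess the replication licensing gene Cdt1 was called lower in CD69-/- cells (-0.15, adjusted p = 0.0326). Between CD69-activated and CD69-/- cells 22 of 23 were lower (median -0.56).

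Of 26 other regulators of the G1/S step, 16 were lower in CD69-activated cells and 0 higher (Rbl2 higher after cyclic loess, 0.13), with a median of -0.21. Ccna2, the cyclin A gene of S phase, fell by 1.18 (adjusted p = 2.47e-07), Cks1b, a cofactor of p27 degradation, by 1.15, the repressor E2f8 by 1.04 and the cyclin E gene Ccne2 by 0.84. The same list had 2 genes higher and 2 lower in CD69-/- cells, with a median of 0.029, and 6 higher and 2 lower after median centring (median 0.075). E2f6 rose by 0.20 (adjusted p = 0.0277) and Rbl1, a relative of Rb1, by 0.15 (adjusted p = 0.0174), while E2f2 fell by 0.33 (adjusted p = 0.00308) and the INK4 gene Cdkn2b by 0.31 (adjusted p = 0.0212). Between CD69-activated and CD69-/- cells 15 were lower and 0 higher (Tfdp2 higher after cyclic loess, 0.16), and Tfdp1, the dimer partner of E2F, was among the genes with the largest differences (-0.95).

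Growth inputs to G1, such as interleukin-2 and its receptor, Myc and the PI3 kinase pathway, were lower for 10 of 18 measured genes in CD69-activated cells and higher for 0 (Pim2 higher after cyclic loess, 0.17), with a median of -0.16. The cytokine Il2 fell by 1.03, Myc by 0.81 (adjusted p = 1.14e-07), and the interleukin-2 receptor genes Il2ra by 0.76 and Il2rb by 0.45. Of the 18, 9 were higher in CD69-/- cells and 1 was lower (median 0.17), led by the costimulatory receptor Cd28 (0.62), Il2 (0.61), Il2rb (0.52) and the transcription factor Irf4 (0.50). The gene called lower was Mycn (-0.28). Cd28 is also one of the CD4 T cell markers, all of which were higher in these cells. Between CD69-activated and CD69-/- cells 11 were lower and 0 higher (median -0.25), with Il2 at -1.64 and Myc at -1.04.

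Target genes of p53, the regulator of Cdkn1a, went in both directions. In CD69-/- cells 7 of 19 were higher and 4 lower (median 0.051), with the death receptor genes Tnfrsf10b (0.52) and Fas (0.37) and the kinase gene Plk3 (0.36) higher and the kinase gene Plk2 (-0.60) lower. In CD69-activated cells 4 of 19 were lower and 1 higher (median -0.0055), beside 13.7% and 10.1% of all genes. Plk3 (-0.49), Plk2 (-0.27), the stress gene Sesn2 (-0.25) and Tnfrsf10b (-0.24) were lower. Bbc3, which encodes the death factor PUMA, was higher (0.19, adjusted p = 0.0384). After median centring 8 were lower and 0 higher, where 4741 of all 19938 genes were lower and 764 higher. Between CD69-activated and CD69-/- cells 8 were lower and 5 higher (median 0.033), which median centring turned to 9 lower and 1 higher (median -0.094). Genes of T cell quiescence and FOXO signalling had 3 higher and 3 lower of 16 in CD69-/- cells (median -0.0067, which became 0.039 after median centring), with Il7r (0.43), Lef1 (0.25) and Satb1 (0.17) higher and Klf2 (-0.54), S1pr1 (-0.24) and Bach2 (-0.16) lower. Median centring gave 4 higher and 2 lower there. Cyclic loess added Foxp1 (-0.11, adjusted p = 0.0286) and Tsc22d3 (-0.16, adjusted p = 0.0127) to the genes called lower. In CD69-activated cells 3 were higher and 1 lower (median 0.070), namely the PI3 kinase inhibitor Pik3ip1 (0.32), Bach2 (0.22) and Tsc1 (0.21) against Klf2 (-0.20). For this list median centring gave 2 higher and 4 lower with a median of -0.012, and cyclic loess gave 7 higher and 1 lower. Its counts and the sign of its median thus depended on the scaling. The list median lay above that of all genes before centring (0.070 beside 0.017) and after it (-0.012 beside -0.065). Between CD69-activated and CD69-/- cells 8 were higher and 3 lower (median 0.11, beside 0.035 over all genes). Median centring turned this to 3 higher and 6 lower (median -0.015, beside -0.092 over all genes).

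**Figure D4:**
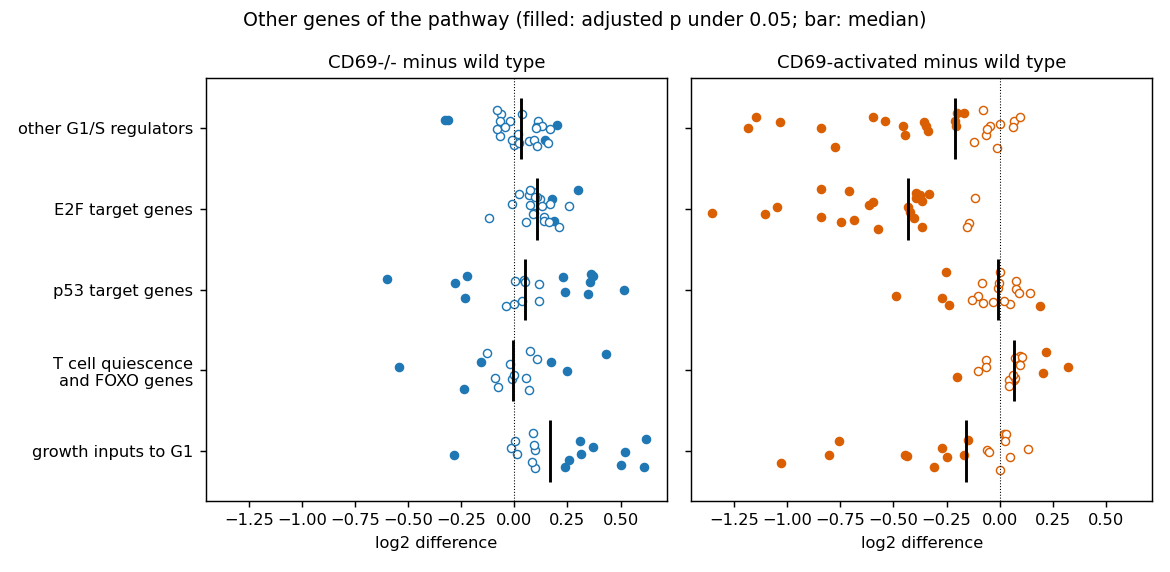
Log2 differences of single genes in 5 pathway lists of CD69-/- (left) and CD69-activated cells (right) from wild type, with called genes filled and list medians as bars. On the right, filled points of E2F targets, other G1/S regulators and growth inputs lie below 0 (medians -0.43, -0.21 and -0.16). The median of the quiescence list, 0.070, turns to -0.012 after median centring, beside 0.017 and -0.065 over all genes.

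Genes outside these lists whose profiles were most like those of the 3 genes with the widest ranges were sought among the 8220 genes called in any comparison, after predicted and clone-named genes, small RNA genes, odorant and vomeronasal receptor genes and antigen receptor segments were left out. Likeness was the root mean square difference of log2 values over the 9 arrays, each gene centred on its own mean. The nearest to Ccnd2 (range of group means 0.72) were Lonp1, Etfb and Cndp2, at 0.031, 0.032 and 0.034. The nearest to Ccnd3 (range 0.51) were Slc25a4, Hddc2 and Stard3nl, at 0.022, 0.030 and 0.030. The nearest to Cdk6 (range 0.44) were Wdr18, Gnl2 and Nob1, at 0.018, 0.024 and 0.025. Lonp1 encodes a mitochondrial protease, Slc25a4 a mitochondrial ADP/ATP carrier, and Wdr18, Gnl2 and Nob1 act in ribosome assembly.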

How the data were processed

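The deposited files hold log2 expression values of 9 one-colour Affymetrix arrays. Per the submitters' processing notes, the authors computed them by RMA (oligo, R 2.12.1). RMA as usually run subtracts background, quantile-normalizes arrays and combines probes by median polish, which makes array distributions alike and compresses large changes; the settings used, and the probe annotation, were not stated. The values carry no detection calls.

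Of 35556 probe sets, the platform annotation gave 1 symbol for 21789, several for 1621 and none for 12146; 21698 were matched by gene ID to RefSeq. The brightest probe set stood for each of 19938 genes.

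The deposited values of all 9 arrays entered limma 3.58.1 under R 4.3.3 (1 mean per group, eBayes without trend, two-sided). Benjamini-Hochberg adjustment ran over all genes, and an adjusted p under 0.05 was called. The fit was tested on simulated data. Intervals are 95% and come from the same fit. Unadjusted p under 0.05 was reached by 5336 genes in CD69-/- minus wild type, 7037 in CD69-activated minus wild type and 10220 in CD69-activated minus CD69-/-.

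The members, gene lists (165 of 180 genes measured), tests and naming rule were chosen with earlier results of these data known. Named were all members, up to 4 called genes with the largest difference per pathway list and comparison, Cd69, and the 3 genes most like each of the 3 members with the widest range; predicted genes and receptor segments were left out of the last. Xist, Eif2s3y, Gm5486, Mycn, Bbc3, Satb1 and genes called only after cyclic loess were named after their values were seen. Alternatives tried were cyclic loess, median centring, dropping dim genes, other uses of probe sets, other fits, stricter thresholds and leaving out each array. Promoters are from RefSeq. Figures used matplotlib 3.10.9 in Python 3.11.15.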

Additional observations from a re-analysis of the deposited data

How the results depend on the processing

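Over 189 values per comparison (each gene of the set under each alternative), 176 kept their direction and side of the threshold in CD69-/- minus wild type, 177 in CD69-activated minus wild type and 179 in CD69-activated minus CD69-/-. Some alternatives, such as stricter thresholds, cannot change the estimate, so its direction was fixed there. Genes not called under either setting also count as kept, so these counts do not measure robustness. The sign turned for 5 values. With the mean of its probe sets Cdkn1b was -0.52 in CD69-/- minus wild type (adjusted p = 2.33e-05), since the second probe set enters. The other 4 were not called under either setting and belong to CD69-activated minus CD69-/-: Cdkn1b was -0.069 after median centring, and Ccnd1 was 0.00094 with array weights, 0.016 without CD69-/- replicate 2 and 0.032 without CD69-activated replicate 1 (range without one replicate at a time -0.042 to 0.032).

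In CD69-/- minus wild type, the genes of the set called higher numbered 4 after median centring and with an intensity trend and robust prior, and 0 at a 1.2-fold minimum; those called lower numbered 1 with the mean of probe sets and 1 with a replicate block. Over all genes, 966 were higher and 831 lower at an adjusted p under 0.01, and 727 and 699 at a 1.2-fold minimum; median centring left 886 lower. Without one replicate at a time, 1092 (without wild-type replicate 3) to 1823 were higher.

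In CD69-activated minus wild type, 0 genes of the set were called higher after median centring, at an adjusted p under 0.01 and at a 1.2-fold minimum, and 2 after cyclic loess and with an intensity trend and robust prior; without one replicate at a time the number was 0 to 1. Over all genes, 764 were higher and 4741 lower after median centring, 585 and 1347 at a 1.2-fold minimum, 980 higher at an adjusted p under 0.01, and 3855 higher with all probe sets tested.

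In CD69-activated minus CD69-/-, 2 genes of the set were called higher after cyclic loess and with the mean of probe sets. Over all genes, 1354 were higher and 7990 lower after median centring, 1479 and 2376 at a 1.2-fold minimum, 2510 higher at an adjusted p under 0.01 and 7414 higher with all probe sets tested. Where no construction shows it, the cause was not tested.

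The replicate numbers were not found to pair arrays: same-numbered arrays of different groups had deviation correlations of -0.2419 to 0.1416 over 9 pairs, differently numbered ones -0.1427 to 0.1958 over 18, and 0 of 9 arrays were closest to their own number in both other groups. With the number as a replicate block, 2 genes of the set were higher and 1 lower in CD69-/- (Rb1, adjusted p = 0.0445), 1 and 6 in CD69-activated minus wild type (Ccnd1 joining at 0.0385) and 1 and 6 in CD69-activated minus CD69-/-; over all genes the counts were 1426 and 1183, 1818 and 2527, and 4048 and 4007. The alternatives for the second Cdkn1b probe set, the chromosome 6 interval and the lists after cyclic loess were chosen after seeing the data. With 3 arrays per group, the intervals above set the smallest differences that could be seen, and the values carry no detection calls.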
